A study of Mus musculus with 15 samples.

Results

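The response of cultured mouse melanocytes to 24 h of low oxygen was measured by comparing 3 arrays labelled hypoxia control with 3 labelled normoxia, which are 6 of the 15 arrays of the series. All cells were of the melan-Ink4a-Arf-1 line, immortal pigment cells derived from Cdkn2a tm1RDp/tm1RDp mice, whose Cdkn2a tumour suppressor locus is disrupted on both alleles, in every group alike. Every group grew at 37 °C in medium with 10% serum, 200 nM of the phorbol ester TPA, which activates protein kinase C, and 200 pM cholera toxin, which raises cyclic AMP. Normoxia was about 21% oxygen with 10% CO2 and hypoxia was 1% oxygen, 5% CO2 and 94% nitrogen, so the effects of oxygen and CO2 cannot be told apart. A further hypoxic group of 3 arrays, labelled negative control, went through the same 24 h. Its values are given beside those of the hypoxia control for some genes only, and both groups are set against the same normoxia arrays. A gene printed without them may still differ between these hypoxic groups. The remaining groups, also hypoxic and titled HIF1A Si1 and HIF1A Si6, entered the fit but are not described. The series calls the 3 arrays of a condition biological triplicates, but they come from 1 line, so p-values describe the spread between cultures of that line. The labels do not say what the hypoxia control or the negative control received besides low oxygen, and the files name no slide or scan, so batch was not tested. Values are the deposited log2 intensities of 1-colour arrays, the value behind ± is the standard error that limma gives (3 arrays in each group), levels are in the order of arrays a, b and c, and p-values are limma's after Benjamini-Hochberg adjustment over 22180 genes.

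Cells sense oxygen through prolyl hydroxylases of the EGLN family, which need molecular oxygen to mark the alpha subunits of hypoxia-inducible factor (HIF) for destruction by the von Hippel-Lindau protein. When oxygen falls, HIF alpha subunits persist, pair with ARNT and bind a short DNA core, ACGTG or GCGTG, near genes for glycolysis, pH control, blood vessel growth, matrix modification and mitochondrial turnover. Melanocytes sit in skin, a tissue with low oxygen tension, and depend on a lineage programme of receptors, transcription factors and melanosome proteins.

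Of 22180 genes, 2190 were higher in hypoxia (9.87%) and 2474 lower (11.2%) at an adjusted p under 0.05, together 21% of all genes. The response was lopsided in size: 128 genes rose at least 2-fold (0.577%) and 30 fell at least 2-fold (0.135%). The 26 genes that changed by at least 2 on the log2 scale all rose, 6 of them by 3 or more. Shares over all genes include 11090 dim genes, those below the median level. With the dimmest 50% left out, 5015 genes passed, 2261 higher and 2754 lower, so brighter genes passed in larger shares. A list with few dim members can therefore exceed 21% without exceeding the share of brighter genes. Without any test, the 3 hypoxia arrays lay wholly above the 3 normoxia arrays for 3628 genes (16.4%) and wholly below them for 4134 (18.6%). Arrays of the same group correlated at 0.9935 to 0.9956 over all probe sets and arrays of different groups at 0.9879 to 0.9907, and over genes the standard error had a median of 0.076 (log2). Melanocyte markers were bright on all 6 arrays, with a mean level of the 10 markers of 12.06 to 12.10 in normoxia and 11.74 to 11.79 in hypoxia. All 10 endothelial markers, 8 of 9 keratinocyte markers and 7 of 10 macrophage markers lay below the median level of all genes, as did 6 of 10 fibroblast markers but only 2 of 7 Schwann cell markers.

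**Figure D1:**
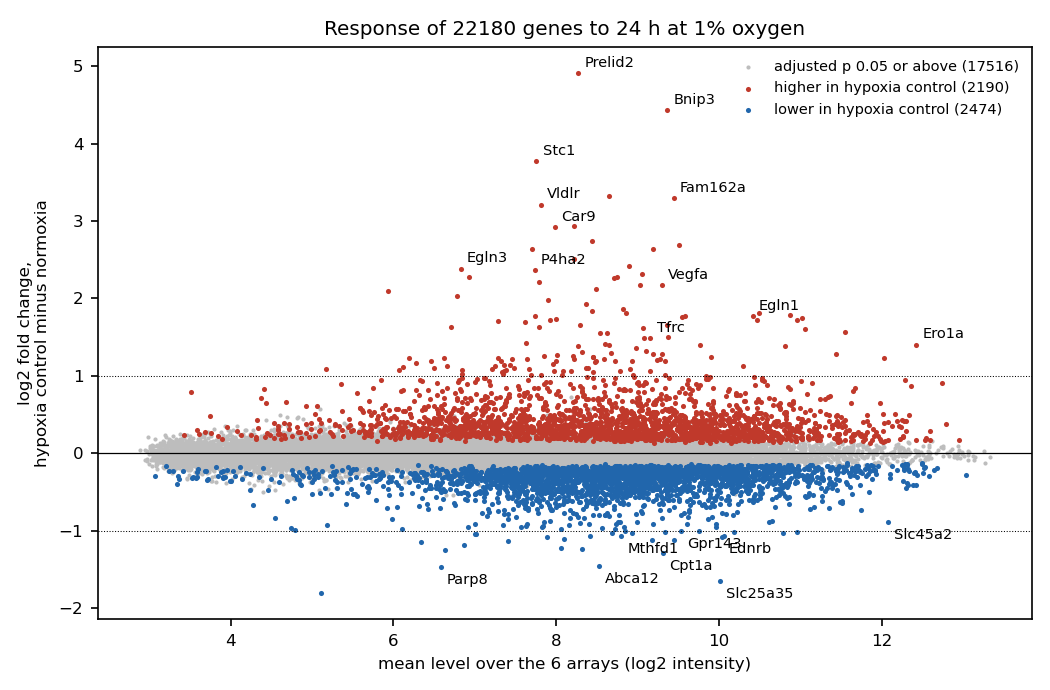
Log2 fold change of each gene, hypoxia control minus normoxia, against its mean log2 intensity over the 6 arrays, with 2190 higher genes in red and 2474 lower genes in blue; dotted lines mark 2-fold. Rises reach 4.91 (Prelid2) and falls among labelled genes reach -1.65 (Slc25a35), and no fall reaches the size of the 26 largest rises.

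The oxygen sensors themselves led the HIF regulators. Egln3, the most strongly oxygen-regulated of the HIF prolyl hydroxylases, measured 5.82, 5.68 and 5.40 in normoxia and 7.95, 7.82 and 8.29 in hypoxia, a rise of 2.39 ± 0.15 (adjusted p = 2.94e-08). Egln1, the main HIF prolyl hydroxylase of most cells, measured 9.52, 9.55 and 9.50 in normoxia and 11.28, 11.40 and 11.22 in hypoxia, a rise of 1.77 ± 0.06 (adjusted p = 1.11e-11). For both genes every hypoxia array stood above every normoxia array. The mRNAs of the HIF subunits moved little by comparison: Hif1a rose by 0.25 ± 0.06 (adjusted p = 0.00424), and Epas1, which encodes HIF-2 alpha, measured 7.76, 7.97 and 8.05 in normoxia and 7.73, 7.70 and 7.85 in hypoxia in arrays that overlapped (-0.16 ± 0.08, adjusted p = 0.201). The rise of Hif1a rests on the brighter of 2 probe sets; with their mean it was 0.125 (adjusted p = 0.134). Their partner Arnt did not pass the test (-0.04 ± 0.04, adjusted p = 0.631), whereas its paralogue Arnt2 fell by 0.25 ± 0.05 (adjusted p = 0.00144). Cited2, a HIF-induced protein that competes with HIF for its coactivators, rose by 0.22 ± 0.05 (adjusted p = 0.00305) in the hypoxia control but had a log2 change of -0.08 in the negative control, and the hypoxic groups differed (adjusted p = 0.000376). Vhl, the recognition subunit of the HIF ubiquitin ligase, measured 8.61, 8.65 and 8.65 in normoxia and 8.84, 8.81 and 8.86 in hypoxia. Its hypoxia arrays were all higher, but the difference of 0.20 ± 0.07 did not pass (adjusted p = 0.0561), though it passed under 4 of the alternative settings. Of 13 measured HIF subunits, sensors and regulators, 4 rose, 1 fell and 8 did not pass, with a median of 0.07 against -0.0016 for all genes. The share past the test was 38.5% against 21% of all genes, and 2 of the 13 were dim.

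**Figure D2:**
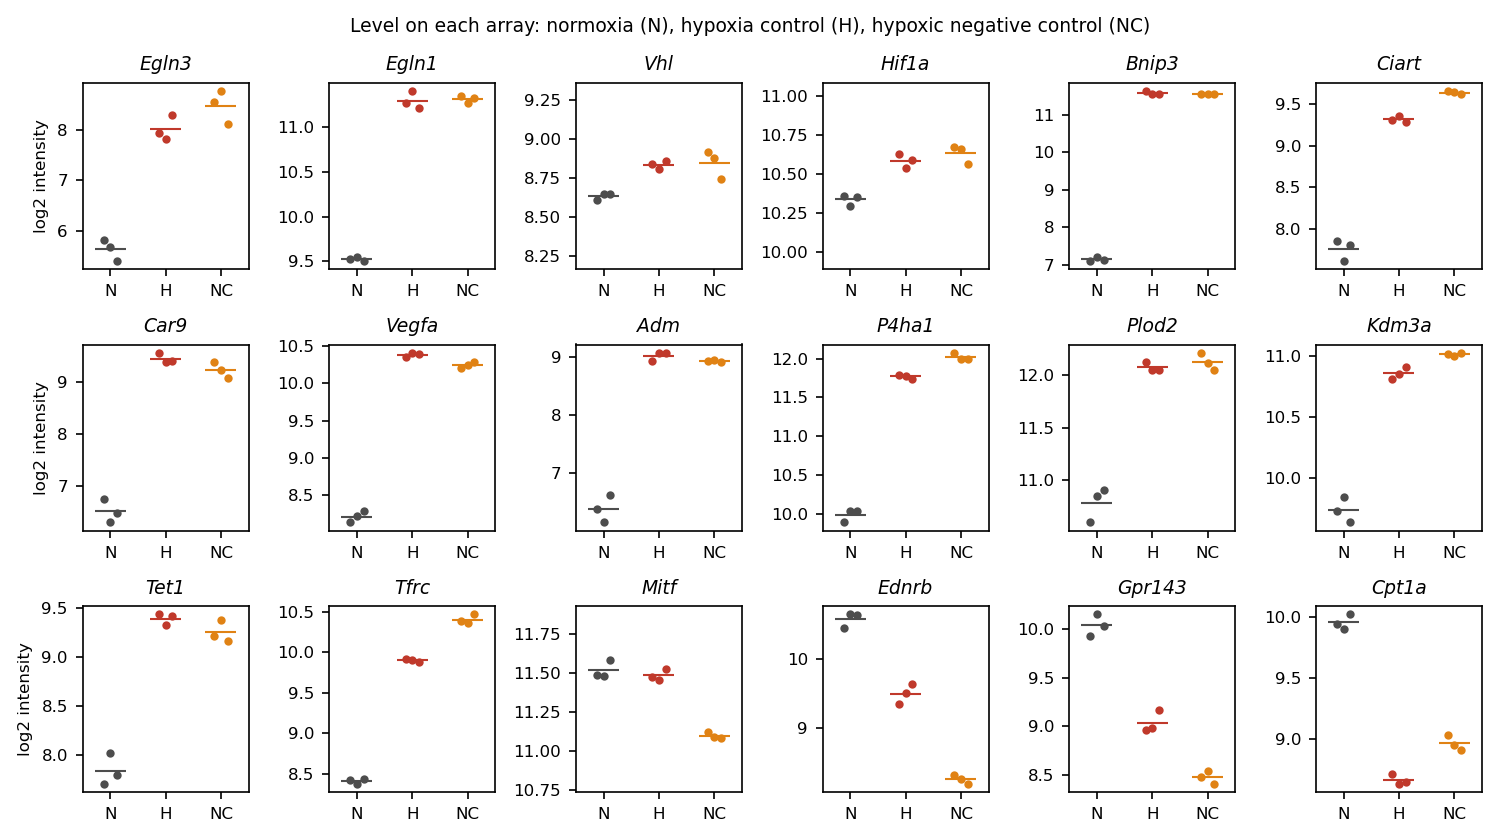
Log2 intensity of 18 genes on each array of normoxia (N, grey), the hypoxia control (H, red) and the hypoxic negative control (NC, orange); points are arrays and lines group means, and each panel has its own axis. Bnip3, Egln1, Vegfa and P4ha1 are higher on every array of both hypoxic groups, Mitf is lower on the negative control arrays, and Ednrb and Gpr143 are lower there than in the hypoxia control.

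Genes of mitochondrial turnover split between very large rises and modest falls. Bnip3, an outer membrane receptor that marks mitochondria for autophagy, measured 7.10, 7.21 and 7.12 in normoxia and 11.63, 11.56 and 11.55 in hypoxia, a 21.7-fold rise (4.44 ± 0.07, adjusted p = 3.08e-15). Fam162a, a mitochondrial protein and known HIF-1 target, measured 7.75, 7.93 and 7.72 in normoxia and 11.07, 11.20 and 11.003 in hypoxia (3.29 ± 0.09). Higd1a, a hypoxia-inducible protein of the inner membrane that acts on respiratory complexes, measured 6.87, 6.97 and 7.05 in normoxia and 9.51, 9.59 and 9.31 in hypoxia (2.51 ± 0.08). These were among the 20 largest rises of all genes. Lonp1, the matrix protease, rose by 0.78 ± 0.09 (adjusted p = 1.38e-05). On the other side Pink1, the kinase that recruits Parkin to damaged mitochondria, measured 9.34, 9.32 and 9.37 in normoxia and 8.67, 8.79 and 8.88 in hypoxia and fell by 0.57 ± 0.06 (adjusted p = 2.34e-06). Ppargc1a, a coactivator that drives mitochondrial biogenesis, measured 7.94, 8.05 and 7.95 in normoxia and 7.52, 7.39 and 7.64 in hypoxia and fell by 0.47 ± 0.09 (adjusted p = 0.000824), while it had a log2 change of -0.15 in the negative control, a difference between the hypoxic groups that passed the test (adjusted p = 0.0193). Of 20 measured genes of mitophagy, mitochondrial dynamics and hypoxic mitochondrial adaptation, 6 rose and 7 fell, with a median of -0.0026. The share past the test was 65% against 21% of all genes, and 3 of the 20 were dim. The count of falls was sensitive to single arrays: it was 3 without hypoxia control array a, 4 without b and 3 without c, and 4 without normoxia array b and 3 without c.

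The windows from 250 bases before to 50 bases after the gene start were searched for the HIF core, ACGTG or GCGTG on either strand, with overlapping matches merged into 1 site. Windows came from RefSeq, build GRCm38.p6, and covered 16918 of the 22180 genes. Shown are 4 genes with large rises and from 1 to 6 sites, 5′ to 3′ on the gene's own strand, with matches in capitals (CACGT and CACGC are the same letters read on the other strand). Bnip3 is on the minus strand at chr7:138909457-138909756, Fam162a on the minus strand at chr16:36071512-36071811, P4ha2, which encodes a collagen prolyl hydroxylase, on the plus strand at chr11:54100674-54100973, and Car9, a cell surface carbonic anhydrase, on the plus strand at chr4:43506776-43507075.
Bnip3: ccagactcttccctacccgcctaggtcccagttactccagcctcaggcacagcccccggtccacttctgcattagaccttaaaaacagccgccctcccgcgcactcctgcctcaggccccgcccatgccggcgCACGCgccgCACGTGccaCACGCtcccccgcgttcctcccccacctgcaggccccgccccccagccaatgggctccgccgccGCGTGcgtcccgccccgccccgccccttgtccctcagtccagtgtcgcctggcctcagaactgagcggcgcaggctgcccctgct
Fam162a: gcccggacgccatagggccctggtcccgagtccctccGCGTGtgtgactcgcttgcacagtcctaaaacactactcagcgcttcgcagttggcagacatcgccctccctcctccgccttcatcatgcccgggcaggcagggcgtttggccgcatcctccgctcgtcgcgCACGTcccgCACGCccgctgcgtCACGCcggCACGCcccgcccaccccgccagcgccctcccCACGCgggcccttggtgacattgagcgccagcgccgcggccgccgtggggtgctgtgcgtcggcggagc
P4ha2: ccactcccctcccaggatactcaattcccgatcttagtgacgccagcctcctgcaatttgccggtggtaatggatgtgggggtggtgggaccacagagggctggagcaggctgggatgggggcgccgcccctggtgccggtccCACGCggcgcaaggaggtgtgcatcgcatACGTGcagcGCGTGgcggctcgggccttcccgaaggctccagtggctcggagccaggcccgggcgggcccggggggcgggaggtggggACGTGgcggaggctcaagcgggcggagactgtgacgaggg
Car9: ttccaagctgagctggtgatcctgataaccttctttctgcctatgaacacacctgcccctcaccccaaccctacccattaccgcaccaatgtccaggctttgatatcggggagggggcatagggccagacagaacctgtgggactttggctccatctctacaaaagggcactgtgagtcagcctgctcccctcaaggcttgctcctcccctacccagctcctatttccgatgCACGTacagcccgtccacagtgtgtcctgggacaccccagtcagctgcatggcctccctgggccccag
The Bnip3 window held 4 sites, beginning 117, 108, 99 and 35 bases before the gene start. Fam162a held 6 sites and P4ha2 held 4. Car9 held 1, which began 18 bases before the start. The windows of Vldlr, the lipoprotein receptor gene that rose by 3.21 ± 0.09, each held 0.

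Across genes, at least 1 match was found in 53.2% of the 16918 genes with a window. The share was 67.7% of the 99 genes with a window that rose at least 2-fold, 66.9% of those that rose by less, 66.5% of those that fell, and 49.4% of those that did not pass the test. Simple presence of the core was thus about as frequent among falling as among rising genes. More than 1 site was found in 24.2% of all genes, in 43.4% of those that rose at least 2-fold, in 63.6% of the 22 that rose at least 4-fold, in 35.7% of those that rose less than 2-fold, and in 32.6% of those that fell. These shares describe letters in a short window and carry no test; base composition of the windows was not compared.

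In acid handling, carbonic anhydrases and a lactate exporter rose and a bicarbonate exchanger fell. Car9 measured 6.75, 6.31 and 6.50 in normoxia and 9.55, 9.38 and 9.40 in hypoxia (2.92 ± 0.11, adjusted p = 3.59e-11), although a second Car9 probe set showed 0.25 and did not pass. Slc16a3, the lactate and proton exporter MCT4, measured 7.02, 6.73 and 6.81 in normoxia and 8.59, 8.58 and 8.69 in hypoxia (1.77 ± 0.10, adjusted p = 1.05e-08). Car12, another cell surface carbonic anhydrase, measured 6.62, 6.64 and 6.60 in normoxia and 7.67, 7.44 and 7.68 in hypoxia (0.98 ± 0.07). All 3 genes were higher on every hypoxia array. Car12 rose less in the negative control, by 0.51, and the hypoxic groups differed (adjusted p = 0.000287). Slc4a8, a sodium-driven bicarbonate exchanger, fell by 0.80 ± 0.08 (adjusted p = 4.38e-06). Of 21 measured genes of the group, 7 of them dim, 6 rose and 5 fell, with a median of -0.0048. The share past the test was 52.4% against 21% of all genes.

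Secreted vascular and growth factors held several of the largest rises. Vegfa, the main blood vessel growth factor, measured 8.13, 8.22 and 8.29 in normoxia and 10.35, 10.41 and 10.39 in hypoxia, a 4.5-fold rise (2.17 ± 0.05, adjusted p = 2.52e-13). Adm, the vasodilator peptide adrenomedullin, measured 6.39, 6.16 and 6.63 in normoxia and 8.94, 9.06 and 9.07 in hypoxia (2.63 ± 0.11), and Apln, the ligand of the apelin receptor, measured 8.13, 7.85 and 7.89 in normoxia and 9.82, 9.75 and 9.73 in hypoxia (1.81 ± 0.10). Stc1, the glycoprotein hormone stanniocalcin 1, measured 5.70, 5.97 and 5.94 in normoxia and 9.73, 9.72 and 9.47 in hypoxia (3.77 ± 0.09). In each of these 4 genes the groups were apart by more than the whole spread of either. Adm2, a second adrenomedullin-family peptide, rose by 1.10 ± 0.11 (adjusted p = 2.2e-06). Of 28 measured factors, 15 rose and 3 fell, against 9.87% and 11.2% of all genes, with a median of 0.34; 13 of the 28 lay below the median level of all genes.

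Several collagen-modifying enzymes rose while Col1a1, a collagen I chain, fell. P4ha2 measured 6.55, 6.55 and 6.57 in normoxia and 9.004, 9.04 and 8.71 in hypoxia (2.36 ± 0.09, adjusted p = 5.94e-11), and P4ha1 measured 9.88, 10.03 and 10.04 in normoxia and 11.79, 11.78 and 11.74 in hypoxia (1.79 ± 0.05, adjusted p = 2.28e-12); both encode catalytic subunits of the prolyl hydroxylase that stabilises the collagen triple helix. Plod2, which hydroxylates collagen lysines for cross-linking, measured 10.60, 10.85 and 10.91 in normoxia and 12.13, 12.05 and 12.05 in hypoxia (1.29 ± 0.09). P4hb, the beta subunit of the prolyl hydroxylase, rose by 0.74 ± 0.05. The remaining catalytic subunit, P4ha3, went the other way, from 7.51, 7.41 and 7.46 to 6.48, 6.66 and 6.50 (-0.92 ± 0.08, adjusted p = 9.15e-07). Of 18 measured enzymes, 3 of them dim, 8 rose and 3 fell, with a median of 0.18. The share past the test was 61.1% against 21% of all genes. Col1a1, the major fibrillar collagen chain, measured 9.33, 9.26 and 9.45 in normoxia and 8.44, 8.22 and 8.37 in hypoxia and fell by 1.003 ± 0.09 (adjusted p = 7.07e-07).

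Several basement membrane and adhesive matrix genes rose, opposite to Col1a1. Fn1, fibronectin, measured 11.96, 11.89 and 11.92 in normoxia and 12.84, 12.78 and 12.74 in hypoxia (0.87 ± 0.05, adjusted p = 2.11e-08). Hspg2, the basement membrane proteoglycan perlecan, measured 11.27, 11.21 and 11.27 in normoxia and 12.04, 12.06 and 12.04 in hypoxia (0.80 ± 0.05), and Nid2, a basement membrane linker, rose by 0.70 ± 0.06. Thbs1, the matrix glycoprotein thrombospondin 1, rose by 0.71 ± 0.08 in the hypoxia control and by 1.87 in the negative control, which differed (adjusted p = 1.6e-07). Of 44 measured collagens and other matrix proteins, 15 of them dim, 17 rose, 3 fell and 24 did not pass, with a median of 0.05. The share past the test was 45.5% against 21% of all genes. Among 10 fibroblast markers, which include Col1a1, 1 rose and 3 fell, and their mean level was 6.66 to 6.70 in normoxia and 6.54 to 6.58 in hypoxia; whether cells of that type had a part in the collagen values was not tested.

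Integrin subunits, the receptors for this matrix, rose in 10 of 23 measured genes and fell in 1, with a median of 0.16. The 47.8% past the test stood against 21% of all genes, and 8 of the 23 were dim. Itga2, a collagen-binding subunit, measured 8.74, 8.81 and 8.93 in normoxia and 9.81, 9.88 and 9.83 in hypoxia (1.01 ± 0.07, adjusted p = 7.3e-08). Itga8 and Itga1 rose by 0.76 ± 0.05 and 0.60 ± 0.07, and Itgb3 by 0.51 ± 0.06. The exception was Itga9, which measured 8.64, 8.83 and 8.77 in normoxia and 7.73, 7.79 and 8.002 in hypoxia and fell by 0.90 ± 0.09 (adjusted p = 2.58e-06). Of 33 matrix proteases and their inhibitors, 8 of them dim, 42.4% passed the test, 10 higher and 4 lower. The proprotein convertase Pcsk6 led them, from 7.63, 7.49 and 7.62 to 9.91, 9.83 and 9.77 (2.26 ± 0.06, adjusted p = 5.28e-13); it rose still further in the negative control (3.25, adjusted p of the difference = 3.3e-08). The aggrecan-cleaving proteases Adamts1, Adamts4 and Adamts5 rose by 0.86 ± 0.07, 0.83 ± 0.07 and 0.53 ± 0.08. Bace2, a protease that acts on the melanosome protein PMEL, measured 9.81, 10.13 and 9.95 in normoxia and 9.30, 9.42 and 9.53 in hypoxia and fell by 0.55 ± 0.09 (adjusted p = 0.000385), with a log2 change of -1.94 in the negative control.

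Guidance molecules, which steer axons and migrating neural crest cells, rose in 16 and fell in 2 of 46 measured semaphorins, plexins, neuropilins, ephrins and receptors. The share past the test was 39.1% against 21% of all genes, and 15 of the 46 were dim. Nrp1, a co-receptor for semaphorins and VEGF, measured 9.76, 9.87 and 9.90 in normoxia and 10.62, 10.59 and 10.56 in hypoxia (0.75 ± 0.06, adjusted p = 1.5e-07). Sema6b, the ephrin Efnb1 and the plexin Plxna3 rose by 0.87 ± 0.07, 0.82 ± 0.06 and 0.80 ± 0.08. Plxnc1, the semaphorin 7A receptor, measured 11.27, 11.45 and 11.38 in normoxia and 10.82, 10.82 and 10.93 in hypoxia and fell by 0.51 ± 0.06 (adjusted p = 2.26e-05), and had a log2 change of -1.51 in the negative control. Among actin, tubulin and contractile genes 12 of 37 rose and 4 fell, 43.2% past the test, with 8 of the 37 dim. Tubb3, a beta-tubulin best known from neurons, measured 8.45, 8.29 and 8.27 in normoxia and 9.90, 9.81 and 9.77 in hypoxia (1.49 ± 0.06, adjusted p = 1.09e-10). Nes, the intermediate filament nestin, and Tpm1, a tropomyosin, rose by 0.47 ± 0.06 and 0.43 ± 0.05, whereas the smooth muscle actin Acta2 and the filamin Flnc fell by 0.43 ± 0.08 and 0.58 ± 0.08. The Acta2 and Flnc falls came with wide normoxia arrays, 8.54, 8.36 and 8.15 and 7.94, 7.67 and 7.64, against 7.89, 7.99 and 7.88 and 7.20, 7.18 and 7.13 in hypoxia. In the negative control Flnc had a log2 change of -0.14 (adjusted p of the difference = 0.00145).

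**Figure D3:**
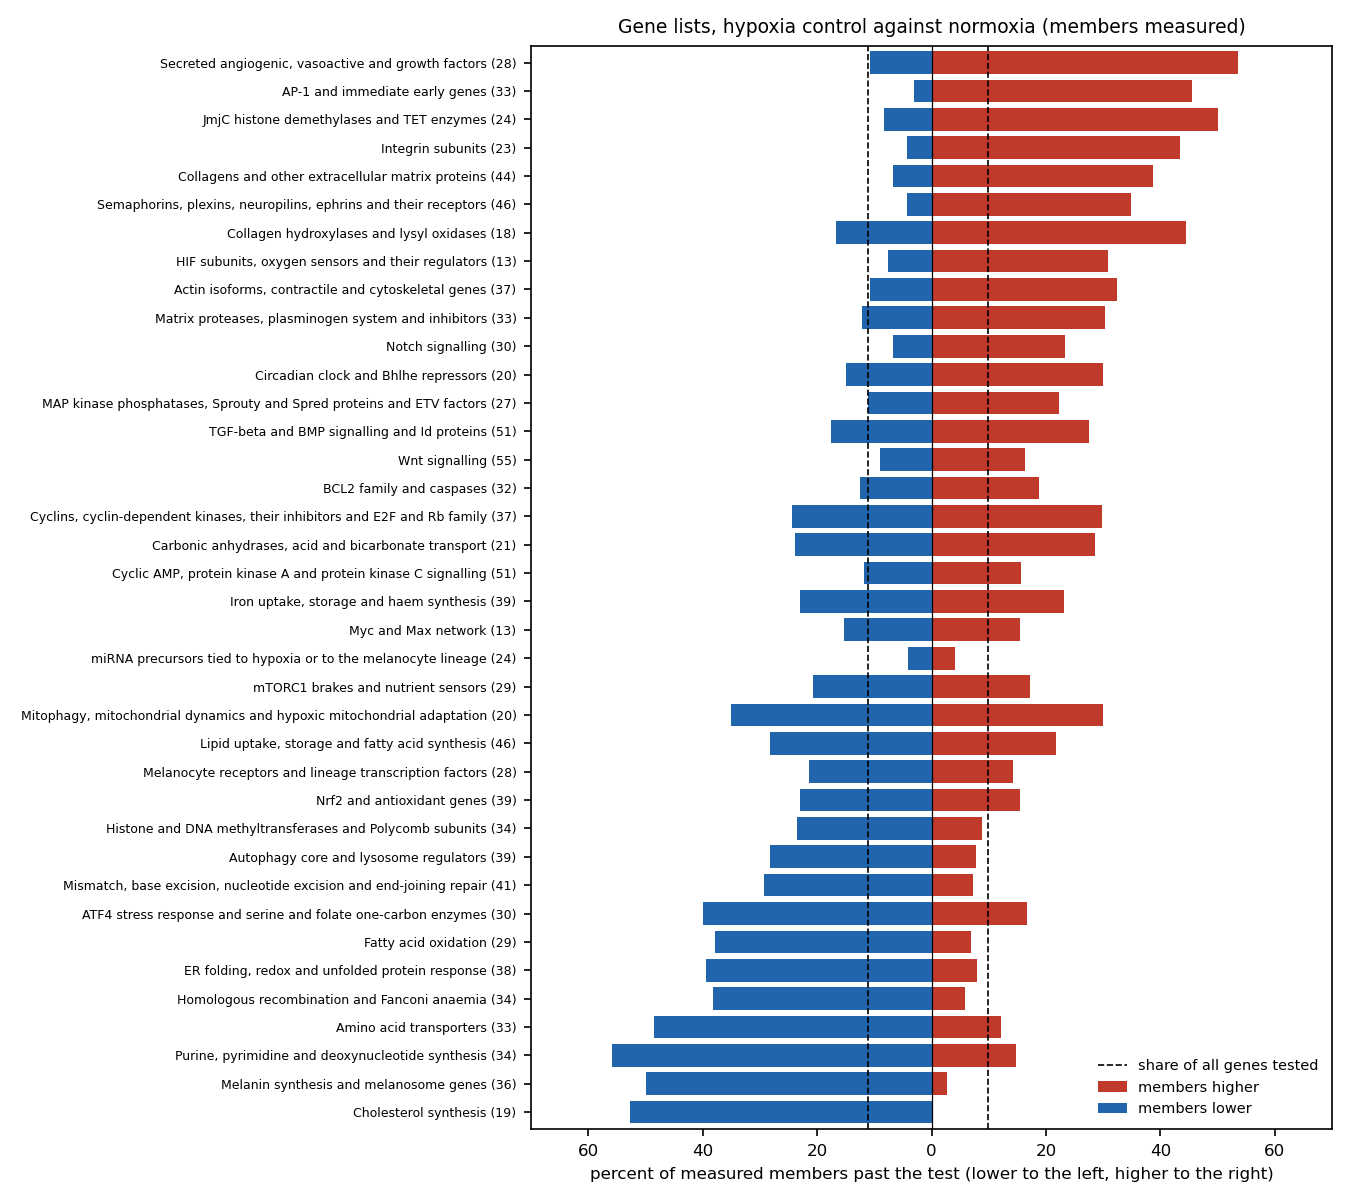
Percent of measured members of each of 38 gene lists that passed the test, lower in hypoxia to the left (blue) and higher to the right (red). Dashed lines mark the shares over all genes, dim ones included, 11.2% lower and 9.87% higher. Secreted factors, AP-1 genes and demethylases stand farthest to the right of the upper line, and cholesterol synthesis, melanosome and nucleotide synthesis genes farthest to the left.

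Enzymes that use oxygen to remove methyl marks, from histones or DNA, included several large rises. Tet1, which oxidises 5-methylcytosine, measured 7.71, 8.02 and 7.80 in normoxia and 9.44, 9.33 and 9.42 in hypoxia, a 2.93-fold rise (1.55 ± 0.08, adjusted p = 1.65e-09). Its relative Tet2 measured 9.75, 9.85 and 9.85 in normoxia and 10.43, 10.41 and 10.47 in hypoxia (0.62 ± 0.07, adjusted p = 1.24e-05). The histone H3 lysine 9 demethylases Kdm4b and Kdm3a rose by 1.19 ± 0.06 and 1.12 ± 0.06, with all hypoxia arrays above all normoxia arrays in both. Kdm5b, a histone H3 lysine 4 demethylase, rose by 0.67 ± 0.08. Of 24 measured JmjC demethylases and TET enzymes, 12 rose and 2 fell, with a median of 0.16. On the writing side, 3 of 34 methyltransferases and Polycomb subunits rose and 8 fell, with a median of -0.07. The shares past the test were 58.3% and 32.4%, against 21% of all genes. Only 2 of the 24 and 1 of the 34 lay below the median level of all genes. The 21% is thus not the share of equally bright genes, and the falls among the 34 are not read as a trait of that list. Dnmt1, which copies DNA methylation at replication, measured 10.04, 9.94 and 10.02 in normoxia and 9.62, 9.64 and 9.57 in hypoxia and fell by 0.39 ± 0.05 (adjusted p = 4.45e-05). Uhrf1, which brings Dnmt1 to replicated DNA, fell by 0.45 ± 0.07. In the negative control their log2 changes from normoxia were -0.03 and 0.08, and both genes differed between the hypoxic groups (adjusted p = 0.000133 and 0.000123). Setdb2, a histone H3 lysine 9 methyltransferase, fell by 0.58 ± 0.07 and had a log2 change of -0.69 in the negative control.

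Of 28 measured melanocyte receptors and lineage factors, 4 rose, 6 fell and 18 did not pass, Mitf and Sox10 among the last, with a median of -0.02. The 35.7% past the test stood against 21% of all genes, and 6 of the 28 were dim. Mitf, the master regulator of the lineage, measured 11.49, 11.48 and 11.58 in normoxia and 11.48, 11.45 and 11.53 in hypoxia (-0.03 ± 0.05, adjusted p = 0.758), and Sox10 measured 11.26, 11.24 and 11.19 in normoxia and 11.26, 11.29 and 11.26 in hypoxia (0.04 ± 0.05, adjusted p = 0.619). The Mitf arrays overlapped, and the Sox10 arrays were barely separated. Irf4, a factor that acts with MITF on the tyrosinase gene, measured 9.39, 9.49 and 9.44 in normoxia and 8.51, 8.56 and 8.58 in hypoxia and fell by 0.89 ± 0.07 (adjusted p = 1.16e-07). Ednrb, the endothelin receptor that melanocyte precursors need, measured 10.45, 10.65 and 10.64 in normoxia and 9.36, 9.51 and 9.64 in hypoxia and fell by 1.08 ± 0.10 (adjusted p = 1.86e-06). Kit, the receptor of stem cell factor, measured 8.91, 9.08 and 9.30 in normoxia and 8.72, 8.67 and 8.70 in hypoxia and fell by 0.40 ± 0.11 (adjusted p = 0.0185); without hypoxia control array b or normoxia array c the fall did not pass (adjusted p = 0.058 and 0.0993). Kitl, which encodes the Kit ligand itself, measured 7.01, 7.01 and 7.08 in normoxia and 8.35, 8.20 and 8.21 in hypoxia and rose by 1.22 ± 0.06 (adjusted p = 1.97e-09). Snai2 and Ngfr, genes of the neural crest, rose by 0.42 ± 0.06 and 0.44 ± 0.08. Among 7 Schwann cell markers 3 rose, and their mean level was 8.70 to 8.73 in normoxia and 8.88 to 8.93 in hypoxia; whether such cells had a part was not tested.

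Of 36 measured melanosome genes 18 fell, by different amounts along the pathway. Gpr143, a melanosome receptor mutated in ocular albinism, measured 9.93, 10.15 and 10.03 in normoxia and 8.96, 8.98 and 9.16 in hypoxia, a 2.01-fold fall (-1.004 ± 0.07, adjusted p = 8.09e-08). Slc45a2, a melanosome transporter mutated in albinism, measured 12.47, 12.58 and 12.51 in normoxia and 11.61, 11.62 and 11.65 in hypoxia (-0.89 ± 0.07, adjusted p = 1.31e-07). Rab27a, which tethers melanosomes for transport, measured 11.33, 11.53 and 11.59 in normoxia and 10.69, 10.75 and 10.86 in hypoxia (-0.72 ± 0.08). In all 3 genes the lowest normoxia array was above the highest hypoxia array. The trafficking genes Hps3 and Mreg fell by 0.85 ± 0.07 and 0.85 ± 0.08. Of the enzymes that make melanin, named after their values were seen, Tyr fell by 0.24 ± 0.07 (adjusted p = 0.0256), whereas Tyrp1 (-0.04 ± 0.05) and Dct (-0.13 ± 0.06) did not pass the test. In all, 1 of the 36 rose, and the median was -0.19. The 52.8% past the test stood against 21% of all genes, but only 3 of the 36 were dim. In bulk RNA, fewer pigmented cells and less of these mRNAs per cell cannot be told apart.

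**Figure D4:**
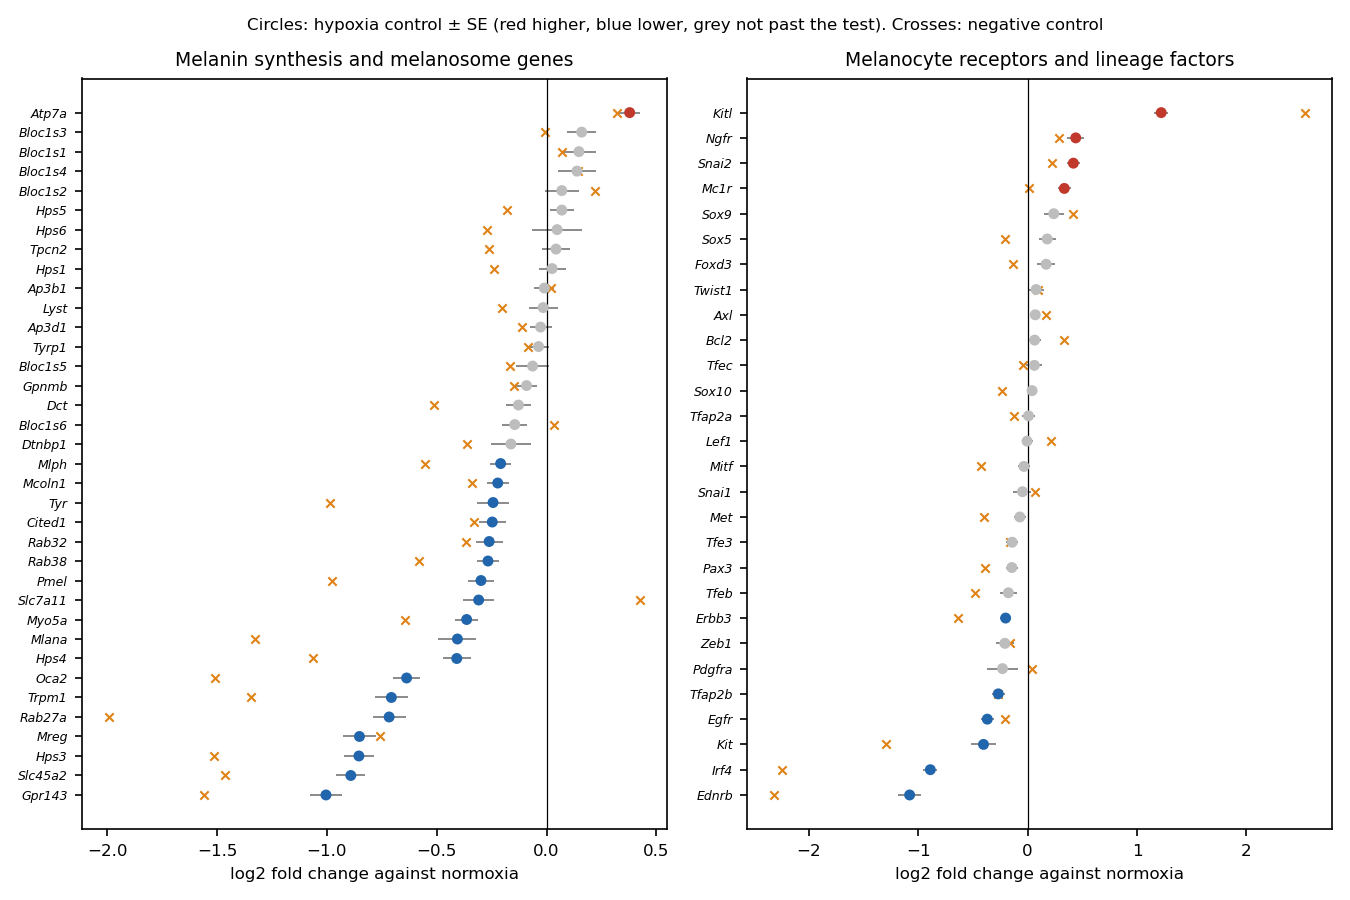
Log2 fold change against normoxia of each measured melanosome gene (left) and melanocyte receptor or lineage factor (right), with circles and standard error bars for the hypoxia control and crosses for the hypoxic negative control. Kitl stands alone to the right at 1.22, Mitf and Sox10 sit at -0.03 and 0.04, and for Ednrb, Irf4, Rab27a and Tyr the crosses lie to the left of the circles.

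The hypoxic groups were not alike for this programme. Ednrb measured 8.32, 8.27 and 8.19 on the negative control arrays, below every hypoxia control array, and the difference passed the test (-1.24, adjusted p = 7.65e-07). Irf4 differed by -1.36 (adjusted p = 7.05e-09), Rab27a by -1.28 (adjusted p = 4.09e-08), Kit by -0.89 (adjusted p = 4.83e-05) and Mitf by -0.39 (adjusted p = 0.000103), all lower in the negative control. Kitl was higher there, at 9.65, 9.57 and 9.50 (difference 1.32, adjusted p = 6.96e-09). Of the 36 melanosome genes, 24 were lower in the negative control than in normoxia and 3 were higher, with a median of -0.33. Over all genes 30.3% passed the test in the negative control against normoxia, 14.6% higher and 15.7% lower. Between the hypoxic groups 15.3% passed, 7.8% higher and 7.51% lower in the negative control.

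The gene for the entry step of fatty acid oxidation fell. Cpt1a, which loads long-chain fatty acids onto carnitine for import into mitochondria, measured 9.94, 9.90 and 10.02 in normoxia and 8.71, 8.63 and 8.65 in hypoxia, a 2.44-fold fall (-1.29 ± 0.05, adjusted p = 2.05e-10). Acaa2, the last enzyme of the mitochondrial cycle, measured 10.35, 10.47 and 10.45 in normoxia and 9.67, 9.59 and 9.70 in hypoxia (-0.77 ± 0.07), and the peroxisomal oxidase Acox3 fell by 0.65 ± 0.06. These genes were lower on every hypoxia array. In all, 11 of 29 genes fell and 2 rose, with a median of -0.11. The 44.8% past the test stood against 21% of all genes, but only 2 of the 29 were dim. Lipid uptake and storage had rises and falls in like number, 10 and 13 of 46, 50% past the test, with 9 of the 46 dim. Vldlr, which takes up triglyceride-rich lipoproteins, measured 6.14, 6.17 and 6.32 in normoxia and 9.25, 9.51 and 9.50 in hypoxia, and Hilpda, an inhibitor of lipolysis on lipid droplets, measured 7.16, 7.19 and 7.15 in normoxia and 8.05, 7.89 and 7.83 in hypoxia (0.76 ± 0.06, adjusted p = 5.91e-07). Against these rises, Dgat1, which makes triglyceride, measured 10.43, 10.40 and 10.49 in normoxia and 9.48, 9.46 and 9.54 in hypoxia (-0.95 ± 0.05, adjusted p = 2.33e-09), and Abca12, a lipid transporter, fell by 1.46 ± 0.08. Fabp7, a fatty acid binding protein of neural crest derivatives, fell by 0.74 ± 0.07, and Apoe, a lipoprotein component, measured 9.89, 10.08 and 10.05 in normoxia and 8.83, 8.84 and 8.96 in hypoxia (-1.12 ± 0.07, adjusted p = 1.05e-08). In cholesterol synthesis 10 of 19 fell, among them Msmo1, a sterol oxidase, at -0.57 ± 0.05. The share past the test was 52.6%, with 0 of the 19 dim. For these lists the 21% is thus not the share of equally bright genes.

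Amino acid transporters and one-carbon enzymes had more falls than rises. Slc7a5, the large neutral amino acid transporter LAT1, measured 12.07, 12.10 and 12.17 in normoxia and 11.49, 11.35 and 11.32 in hypoxia (-0.73 ± 0.06, adjusted p = 2.51e-07), and Slc43a2 and Slc36a1 fell by 0.64 ± 0.09 and 0.49 ± 0.06. Slc38a3, a glutamine transporter, went up from 6.89, 6.95 and 6.66 to 7.995, 7.92 and 7.77 (1.06 ± 0.08, adjusted p = 1.31e-07), and by 2.38 in the negative control. The 33 transporters, 10 of them dim, had 60.6% past the test against 21% of all genes. Of the 33, 16 fell and 4 rose, with a median of -0.13. The rise of Slc36a4 among them (0.54 ± 0.14) was lost with the mean of its probe sets (0.166, adjusted p = 0.164), and its other probe set passed in the opposite direction (-0.21, adjusted p = 0.0417). Folate enzymes went both ways. Aldh1l2, the mitochondrial formyltetrahydrofolate dehydrogenase, measured 7.96, 7.82 and 7.91 in normoxia and 9.82, 9.71 and 9.73 in hypoxia (1.86 ± 0.05, adjusted p = 2.28e-12), while the cytosolic enzyme Mthfd1 measured 9.33, 9.34 and 9.34 in normoxia and 8.16, 8.41 and 8.22 in hypoxia (-1.07 ± 0.08, adjusted p = 8.09e-08). The mitochondrial serine enzyme Shmt2 fell by 0.76 ± 0.07. The list of integrated stress response and one-carbon genes had 5 rises and 12 falls among 30, 56.7% past the test, with 5 of the 30 dim.

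Nucleotide synthesis had the largest share past the test of the 38 lists, 70.6% of 34 genes against 21% of all genes. Of the 34, 19 were lower and 5 higher, with a median of -0.24. Only 3 of the 34 lay below the median level of all genes, so the 21% is not the share of equally bright genes. Rrm2, a subunit of ribonucleotide reductase, measured 8.96, 9.06 and 8.98 in normoxia and 8.26, 8.15 and 8.19 in hypoxia (-0.80 ± 0.06, adjusted p = 8.53e-08), although a dim second probe set did not pass. Tk1 and Tyms, enzymes of thymidylate supply, fell by 0.74 ± 0.06 and 0.64 ± 0.08. Both were closer to normoxia in the negative control, at -0.21 and -0.26, with adjusted p = 1.94e-05 and 0.00211 for the differences. Dnph1, which hydrolyses deoxynucleotides, measured 10.60, 10.54 and 10.62 in normoxia and 9.63, 9.51 and 9.43 in hypoxia (-1.06 ± 0.07). Among the 5 rises were Ak4 and Hprt. Ak4, a mitochondrial adenylate kinase, measured 8.62, 8.74 and 8.74 in normoxia and 10.54, 10.52 and 10.36 in hypoxia (1.77 ± 0.06, adjusted p = 2.12e-11), and Hprt, the purine salvage enzyme, measured 8.63, 8.35 and 8.41 in normoxia and 9.44, 9.45 and 9.43 in hypoxia (0.98 ± 0.09).

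Single regulators of mTORC1 and MYC changed. Ddit4, the stress-induced inhibitor of mTORC1 known as REDD1, measured 7.42, 7.57 and 7.57 in normoxia and 9.39, 9.37 and 9.31 in hypoxia (1.84 ± 0.09, adjusted p = 7.65e-10). Castor2, of the arginine sensor family, measured 8.49, 8.77 and 8.77 in normoxia and 7.49, 7.31 and 7.56 in hypoxia (-1.22 ± 0.09), and Nprl3, a subunit of the GATOR1 complex that restrains mTORC1, fell by 0.59 ± 0.07. Among 29 genes, 3 of them dim, 5 rose and 6 fell, 37.9% past the test against 21% of all genes. Mxi1, a MAX partner that opposes MYC, measured 8.42, 8.44 and 8.46 in normoxia and 9.42, 9.46 and 9.47 in hypoxia (1.01 ± 0.06, adjusted p = 9.66e-09), while its second probe set showed 0.15 and did not pass. Myc itself measured 10.02, 10.02 and 10.04 in normoxia and 9.88, 9.80 and 9.88 in hypoxia: all 3 hypoxia arrays were lower, yet the change of -0.17 ± 0.06 did not pass (adjusted p = 0.064). It passed without the dimmest 50% of genes (0.023), with limma's trend and robust options (0.0234) and with the 6 arrays alone (0.049). Of 13 MYC and MAX network genes 2 rose and 2 fell, few genes to set against 21% of all genes.

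AP-1 and immediate early genes rose in 15 of 33 and fell in 1, with a median of 0.16. The 48.5% past the test stood against 21% of all genes, and 7 of the 33 were dim. Fosl2 measured 8.45, 8.37 and 8.51 in normoxia and 9.83, 9.72 and 9.74 in hypoxia (1.32 ± 0.05, adjusted p = 1.09e-10), and Jun measured 8.50, 8.60 and 8.49 in normoxia and 9.56, 9.48 and 9.29 in hypoxia (0.91 ± 0.07); both are subunits of AP-1. Maff, a small MAF protein, and Ier3 rose by 0.89 ± 0.08 and 0.88 ± 0.09. Ccn1, a matricellular protein, rose by 0.59 ± 0.09 here and by 1.70 in the negative control (adjusted p of the difference = 6.34e-07). In the MAP kinase feedback group Spry3, a Sprouty protein, measured 4.99, 4.76 and 4.93 in normoxia and 7.05, 7.03 and 6.88 in hypoxia (2.09 ± 0.08, adjusted p = 9.15e-11). Dusp4, a phosphatase of MAP kinases, measured 9.80, 9.73 and 9.73 in normoxia and 9.22, 9.19 and 9.24 in hypoxia (-0.54 ± 0.05), and Spry4 fell by 0.43 ± 0.08 but had a log2 change of 0.12 in the negative control. Of 27 such genes, 2 of them dim, 6 rose and 3 fell, 33.3% past the test against 21% of all genes. The count of rises was 3 without hypoxia control array a, 3 without c and 3 without normoxia array c.

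Clock output and repressor genes changed in both directions. Ciart, a repressor of the CLOCK and BMAL1 complex, measured 7.86, 7.62 and 7.81 in normoxia and 9.31, 9.36 and 9.29 in hypoxia (1.56 ± 0.08, adjusted p = 4.22e-09). The paired repressors Bhlhe40 and Bhlhe41 moved apart, Bhlhe40 from 10.02, 10.12 and 10.11 to 11.03, 10.99 and 11.05 (0.94 ± 0.05, adjusted p = 9.66e-09) and Bhlhe41 from 11.01, 11.03 and 11.14 to 10.57, 10.67 and 10.70 (-0.41 ± 0.06, adjusted p = 9.65e-05). In the negative control Bhlhe41 had a log2 change of -1.21 (adjusted p of the difference = 2.87e-07). Rora, Nfil3 and Arntl rose by 0.69 ± 0.06, 0.49 ± 0.06 and 0.48 ± 0.06. Of 20 clock genes, 2 of them dim, 6 rose and 3 fell, 45% past the test against 21% of all genes.

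Antagonists of secreted morphogens were among the rises. Grem1, which binds and blocks BMPs, measured 9.72, 9.57 and 9.54 in normoxia and 11.30, 11.35 and 11.35 in hypoxia (1.73 ± 0.07, adjusted p = 1.09e-10), Fst, the activin antagonist follistatin, rose by 0.85 ± 0.09, and Frzb, a soluble Wnt antagonist, measured 7.54, 7.54 and 7.64 in normoxia and 9.06, 8.95 and 8.89 in hypoxia (1.39 ± 0.05, adjusted p = 9.15e-11). Id1, a direct BMP target in many cells, measured 7.27, 7.15 and 7.14 in normoxia and 8.18, 8.21 and 8.002 in hypoxia (0.94 ± 0.09, adjusted p = 1.13e-06), whereas Id2 did not pass (-0.02 ± 0.05). Tgfb1 measured 9.27, 9.44 and 9.55 in normoxia and 8.80, 8.81 and 8.64 in hypoxia and fell by 0.67 ± 0.07, and Ltbp2, a latent TGF-beta binding protein family member, fell by 0.72 ± 0.07. The TGF-beta and BMP list had 14 rises and 9 falls among 51 genes, 45.1% past the test, with 11 of the 51 dim. Among 55 Wnt genes 9 rose and 5 fell, 25.5% past the test against 21% of all genes, a share near the background. Single receptors rose, namely Fzd3 (0.75 ± 0.05), Lgr4 (0.80 ± 0.07) and Lrp5 (0.66 ± 0.05). Notch genes rose in 7 and fell in 2 of 30, 30% past the test, with 11 of the 30 dim. Notch1 rose by 0.27 ± 0.04 and its target Hes1 by 0.36 ± 0.06. Cyclic AMP and protein kinase C genes, whose pathways the culture medium stimulates, rose in 8 and fell in 6 of 51, 27.5% past the test and also near the background of 21%. The phosphodiesterases Pde1b and Pde1c changed by 0.92 ± 0.07 and -0.64 ± 0.11.

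Several cell cycle brakes rose, and the retinoblastoma-like gene Rbl1 fell. Ccng2, an atypical cyclin linked to arrest, measured 9.13, 9.19 and 9.16 in normoxia and 9.98, 10.10 and 10.09 in hypoxia (0.90 ± 0.06, adjusted p = 3.37e-08). Cdkn1a, the cyclin-dependent kinase inhibitor p21, measured 10.48, 10.35 and 10.42 in normoxia and 11.18, 11.03 and 10.999 in hypoxia (0.65 ± 0.06), and Cdkn1b, which encodes p27, rose by 0.38 ± 0.06. Both inhibitors were higher on every hypoxia array, in cells that lack the Cdkn2a inhibitors. Ccnd1, cyclin D1, did not pass the test (-0.01 ± 0.05, adjusted p = 0.89). Cdk2 measured 11.63, 11.74 and 11.69 in normoxia and 11.15, 11.21 and 11.28 in hypoxia (-0.48 ± 0.06) and Cdc25a, an activating phosphatase, fell by 0.54 ± 0.07. In the negative control their log2 changes were -1.21 and -0.20 (adjusted p of the differences = 4.68e-07 and 0.00304). Rbl1 measured 9.73, 9.87 and 9.92 in normoxia and 8.85, 8.84 and 8.79 in hypoxia (-1.01 ± 0.10, adjusted p = 2.63e-06) but 10.03, 10.03 and 9.65 in the negative control, a log2 change of 0.06 (adjusted p of the difference = 2.46e-06). The list held 11 rises and 9 falls among 37 genes, 54.1% past the test against 21% of all genes, with 0 of the 37 dim.

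Genes of homologous recombination had different counts in the hypoxic groups. Of 34 measured homologous recombination and Fanconi genes, 13 fell and 2 rose, with a median of -0.16. Against the same normoxia arrays the negative control had 3 falls and 13 rises, with a median of 0.09. In the hypoxia control the share past the test was 44.1% against 21% of all genes. Only 5 of the 34 were dim, so the 21% is not the share of equally bright genes. Brca2, a tumour suppressor of the pathway, measured 7.26, 7.02 and 7.18 in normoxia, 6.84, 6.71 and 6.71 in the hypoxia control and 7.53, 7.58 and 7.44 in the negative control. Its log2 change of -0.40 ± 0.08 (adjusted p = 0.00208) thus stood beside a value of 0.36, and the hypoxic groups differed by 0.76 (adjusted p = 8.77e-06). Fancd2, the ubiquitinated component of the Fanconi pathway, measured 8.44, 8.30 and 8.51, 7.99, 8.03 and 8.04 and 8.79, 8.81 and 8.70 in the same order, a difference of 0.75 between the hypoxic groups (adjusted p = 4.41e-07). Hells, a chromatin remodeller, fell by 1.04 ± 0.07 in the hypoxia control and had a log2 change of -0.15 in the negative control (adjusted p of the difference = 5.99e-07). Rad54l and Exo1 fell by 0.59 ± 0.09 and 0.66 ± 0.08, with log2 changes of -0.03 and -0.04 in the negative control. Brca1 did not pass the test (-0.01 ± 0.07, adjusted p = 0.955).

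Mismatch, excision and end-joining repair genes fell in 12 and rose in 3 of 41, with a median of -0.07. The share past the test was 36.6% against 21% of all genes, but only 5 of the 41 were dim. The 21% is thus not the share of equally bright genes, and these counts are not read as a trait of the list. In the negative control 17 fell and 9 rose, with a median of -0.12, so here the medians had the same sign. Prkdc, the DNA-dependent protein kinase of end joining, measured 8.35, 8.47 and 8.54 in normoxia and 7.83, 7.84 and 7.89 in hypoxia (-0.60 ± 0.07, adjusted p = 2.11e-05) and had a log2 change of -0.61 in the negative control. Lig1, the replicative DNA ligase, fell by 0.61 ± 0.08. Neil3, a glycosylase of proliferating cells, fell by 0.54 ± 0.06 here but had a log2 change of 0.24 in the negative control (adjusted p of the difference = 2.21e-07). Prkdc was thus lower in both hypoxic groups, and Neil3 was lower in the hypoxia control and higher in the negative control.

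Iron uptake and haem degradation rose at single genes. Tfrc, the transferrin receptor, measured 8.42, 8.37 and 8.44 in normoxia and 9.92, 9.90 and 9.88 in hypoxia, a 2.81-fold rise (1.49 ± 0.05, adjusted p = 1.1e-11). Hmox1, haem oxygenase 1, measured 8.23, 8.08 and 8.06 in normoxia and 9.31, 9.31 and 9.34 in hypoxia (1.20 ± 0.06), and Cp, the ferroxidase ceruloplasmin, measured 7.61, 7.54 and 7.81 in normoxia and 8.70, 8.67 and 8.79 in hypoxia (1.07 ± 0.10). All 3 were higher on every hypoxia array. Slc11a2, the iron importer DMT1, measured 9.19, 9.27 and 9.23 in normoxia and 8.33, 8.24 and 8.45 in hypoxia and fell by 0.89 ± 0.07 (adjusted p = 2.12e-07), and Iscu, the iron-sulphur cluster scaffold, fell by 0.64 ± 0.06. The list held 9 rises and 9 falls among 39, 46.2% past the test against 21% of all genes, with 9 of the 39 dim. Without normoxia array b the rises numbered 5. Of 39 Nrf2 and antioxidant genes, 4 of them dim, 6 rose and 9 fell, 38.5% past the test. Txnrd1, thioredoxin reductase, measured 9.93, 9.93 and 10.01 in normoxia and 9.19, 9.19 and 9.17 in hypoxia (-0.77 ± 0.05, adjusted p = 4.11e-08), whereas malic enzyme Me1 and the metallothionein Mt1 rose by 0.84 ± 0.05 and 0.78 ± 0.06.

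Several folding genes of the endoplasmic reticulum fell while the oxidase Ero1a rose. Ero1a, which uses oxygen to drive disulphide formation, measured 11.69, 11.73 and 11.74 in normoxia and 13.16, 13.14 and 13.08 in hypoxia (1.40 ± 0.05, adjusted p = 6.93e-12), and a second Ero1a probe set also passed at 0.60. Hyou1, a chaperone first described as induced by oxygen deprivation, measured 10.18, 10.24 and 10.28 in normoxia and 9.47, 9.69 and 9.59 in hypoxia and fell by 0.64 ± 0.07 (adjusted p = 4.01e-06). Sdf2l1 and Pdia5 fell by 0.62 ± 0.05 and 0.58 ± 0.07, and 15 of 38 genes fell while 3 rose. Core autophagy genes fell in 11 and rose in 3 of 39, from Atg7 at -0.37 ± 0.05 to Atg2b at 0.34 ± 0.06. These are small changes beside that of Bnip3. The shares past the test were 47.4% of the folding genes and 35.9% of the autophagy genes, against 21% of all genes. Only 3 of the 38 and 2 of the 39 were dim, so the 21% is not the share of equally bright genes. The autophagy counts are not read as a trait of that list. Of 32 BCL2 family and caspase genes 6 rose and 4 fell, 31.2% past the test, with 4 of the 32 dim. The caspases Casp12 and Casp6 rose by 0.83 ± 0.08 and 0.68 ± 0.06. Casp8, the initiator of death receptor signalling, measured 10.60, 10.67 and 10.61 in normoxia and 10.17, 10.14 and 10.12 in hypoxia (-0.48 ± 0.06, adjusted p = 2.26e-05). In the negative control Casp8 had a log2 change of -0.04 (adjusted p of the difference = 7.52e-05).

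The share of genes past the test varied with gene class. Of 18987 protein-coding genes 22.9% passed the test, of 1995 long noncoding RNAs 8.62%, and of 478 microRNA precursors 9%; the long noncoding and microRNA classes were also dimmer, with median levels of 5.84 and 5.55 against 7.19. The lncRNA Dubr was an exception by size, with 7.99, 7.83 and 7.89 in normoxia and 10.30, 10.18 and 10.16 in hypoxia (2.31 ± 0.06, adjusted p = 1.67e-12). Among 81 small nucleolar RNAs 17 fell and 0 rose. That is 21% past the test, as over all genes, of which 11.2% were lower. Genes named in the remainder of this paragraph were chosen after their values were seen. Snord42b measured 8.11, 8.22 and 8.17 in normoxia and 7.33, 7.39 and 7.45 in hypoxia (-0.78 ± 0.07, adjusted p = 6.08e-07), and Snora23 measured 10.69, 10.82 and 10.77 in normoxia and 10.36, 10.35 and 10.20 in hypoxia. Both lay lower on every hypoxia array. Of 218 pseudogenes 31 rose and 2 fell, 15.1% past the test. Pseudogenes can share probes with their parent genes, so their values are uncertain.

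**Figure D5:**
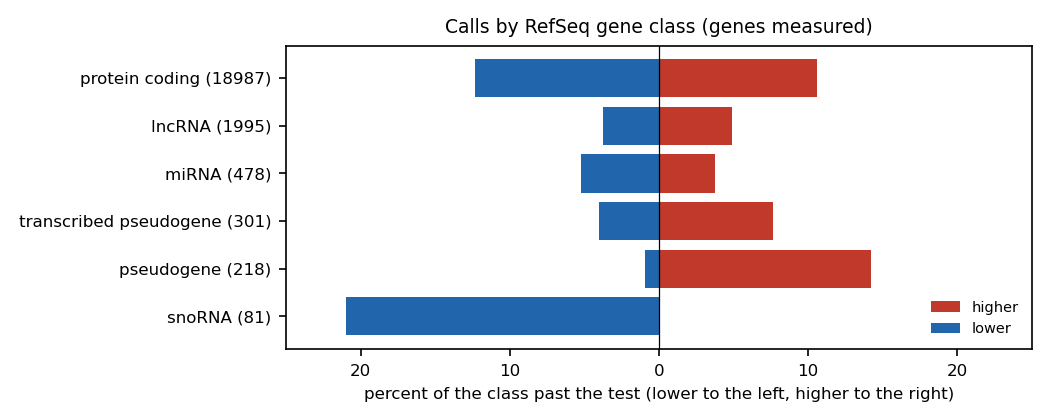
Percent of the measured genes of each RefSeq class that passed the test, lower in hypoxia to the left (blue) and higher to the right (red), with the number measured in brackets. Small nucleolar RNAs show only falls (17 of 81, or 21%, as past the test over all genes). Pseudogenes show mostly rises (31 of 218), and lncRNA and miRNA precursors smaller shares than protein-coding genes.

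MicroRNA probe sets on these arrays report precursor transcripts, not mature strands. Mir210, the best known hypoxia-induced microRNA, measured 8.10, 7.88 and 7.98 in normoxia and 8.03, 8.10 and 8.29 in hypoxia, in overlapping arrays (0.15 ± 0.08, adjusted p = 0.204). Mir211, which lies in an intron of the melanocyte gene Trpm1, measured 6.61, 6.77 and 6.41 in normoxia and 6.16, 6.39 and 6.37 in hypoxia (-0.29 ± 0.11, adjusted p = 0.0644), lower on every hypoxia array but short of the threshold. It passed after quantile normalization (adjusted p = 0.0477), with limma's trend and robust options (0.0476) and without normoxia array c (0.0233). Of 24 precursors tied to hypoxia or the lineage 1 rose, Mir27a (0.18 ± 0.05, adjusted p = 0.0227), and 1 fell, Mir221 (-0.52 ± 0.14, adjusted p = 0.0108). The share past the test was 8.33% against 21% of all genes, and 16 of the 24 were dim. Mir27a did not pass without hypoxia control array a (adjusted p = 0.109), without c (0.0637) or without normoxia array b (0.0794), and 2 precursors rose without normoxia array a. The fall of Mir221 did not pass without hypoxia control array b (adjusted p = 0.0636). In the negative control Mir221 went the other way, with a log2 change of 0.40 (adjusted p = 0.0378). The hypoxic groups differed by 0.92 (adjusted p = 0.000191). Outside this list, and chosen after their values were seen, Mir17 and Mir18, neighbours in 1 cluster, fell by 0.47 ± 0.11 and 0.45 ± 0.10, and Mir15a and Mir16-2 each fell by 0.32. The mature strands from RefSeq (GRCm38.p6) are shown with the seed, bases 2 to 8, in capitals, to set the known hypoxic and lineage strands beside the called precursors that share a seed.
mmu-miR-210-3p: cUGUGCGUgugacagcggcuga
mmu-miR-211-5p: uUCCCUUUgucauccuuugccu
mmu-miR-221-3p: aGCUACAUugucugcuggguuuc
mmu-miR-15a-5p: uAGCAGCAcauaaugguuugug
mmu-miR-16-5p: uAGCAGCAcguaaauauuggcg
The strands of miR-15a-5p and miR-16-5p carry the same seed, AGCAGCA, and the other strands shown have different seeds. Mir140, also chosen after its values were seen, stood apart between the hypoxic groups: it measured 7.28, 7.59 and 7.52 in normoxia, 8.36, 8.31 and 8.27 in the hypoxia control and 7.40, 7.57 and 6.73 in the negative control. Its rise of 0.85 ± 0.17 (adjusted p = 0.00199) stood beside a log2 change of -0.23 in the second hypoxic group (adjusted p of the difference = 0.000394).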

How the data were processed

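RNA from 15 cultures was measured on 1-colour Affymetrix mouse arrays, and the 3 hypoxia control and 3 normoxia arrays were compared. The authors deposited log2 intensities per probe set, made with RMA and Partek per the submitters' processing notes; the genome build used for them was not given in the sources used here. From 41345 probe sets, those with 1 gene symbol were kept, and the probe set with the highest mean stood for its gene, which gave 22180 genes. Of these, 1082 had more than 1 probe set. Genes past the test had 389 further probe sets: 72 passed in the same direction, 8 passed in the opposite direction and 309 did not pass. Group means of the 5 groups were fitted over all 15 arrays with limma 3.58.1 in R 4.3.3 (lmFit, eBayes, Benjamini-Hochberg over all genes, threshold 0.05, no filter on low values), which then share 1 estimate of spread. The hypoxic groups titled HIF1A Si1 and HIF1A Si6 thus entered that estimate. They also entered the mean level that picked the probe set of a gene and defined dim genes. The fit was tested on simulated data. Promoter and miRNA sequences were searched with python 3.11.15 and pandas 2.3.3. The number of arrays limits the precision.

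Unless said otherwise, genes were named from a set fixed by rule, and many of that set are not printed. It held the 20 largest rises and 20 largest falls among genes that passed with separated arrays. It also held up to 5 genes per list with the largest change, and a fixed set of regulators whatever their value. Several of the 20 largest rises, such as Plekha2, Clybl and Gbe1, are not described above. The 38 lists and their members were chosen with earlier results of these data known. The letters a, b and c did not pair arrays: the correlations of deviations of arrays sharing a letter were 6e-04, -0.0031 and -0.0358. Alternatives were quantile normalization, median centring, leaving out the dimmest 50% of genes, averaging the probe sets that share a gene, limma's trend and robust options, the 6 arrays alone, a replicate block, and leaving out each of the 6 arrays.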

Additional observations from a re-analysis of the deposited data

Results flagged for a closer look

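Probe sets outside the gene comparison also carried differences between hypoxia control and normoxia. Of 16010 probe sets with no gene symbol in the annotation, 476 were higher and 896 lower at limma's adjusted p under 0.05, together 8.57%. Of 1814 probe sets annotated to several genes, 153 were higher and 282 lower, together 24%, against 17.7% of the 23521 probe sets with 1 symbol. Among probe sets with several symbols, 52 fell and 19 rose at least 2-fold. Their genes are not named here because a signal cannot be assigned to 1 of them.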

How the results depend on the processing

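The number of genes past the test ranged from 3807 to 5143 over 13 alternative settings. No named gene that passed the test reversed direction. Small list medians did change sign in some settings, among them those of iron, lipid storage, Wnt, cyclic AMP, cell cycle and miRNA precursors. Rises made up 47% of the genes past the test in the main fit. They made up 52.2% after quantile normalization and 50.8% without normoxia array c, so the majority direction also changed. Centring on medians gave 50%. Quantile normalization and centring moved the median of all genes from -0.0016 to 0.0119 and 0.005. With the replicate letter as a block, 4460 genes passed, 47.3% of them higher, and no list result moved. Of 215 named genes past the test, 210 kept their direction and call in the settings in which they were run; 12 of these are dim and were not run without the dimmest 50% of genes. Falls in the mitophagy list numbered 4 after quantile normalization, 3 after median centring, 4 with the 6 arrays alone and 3 to 6 without single arrays. Quantile normalization moved list medians (log2) to 0.213 for collagen enzymes, -0.099 for fatty acid oxidation, -0.06 for stress response and one-carbon genes, -0.027 for MAP kinase feedback, 0.068 for TGF-beta and 0.048 for the BCL2 family. Without the dimmest 50% of genes, which removes members, medians were -0.055 for mitophagy, 0.924 for secreted factors, 0.321 for collagen enzymes, 0.225 for matrix, 0.345 for integrins, 0.196 for guidance, 0.234 for demethylases, -0.124 for fatty acid oxidation, -0.25 for amino acid transport, -0.124 for stress response and one-carbon genes, -0.088 for mTORC1, 0.318 for AP-1, -0.027 for cyclic AMP, 0.077 for TGF-beta, -0.062 for Nrf2, 0.176 for actin and 0.068 for miRNA precursors, of which 2 rose. With the mean of probe sets the Nrf2 median was -0.015, and with the 6 arrays alone 0 miRNA precursors rose by limma's adjusted p. Leaving out single arrays gave rises of 3 to 5 for MAP kinase feedback, 5 to 9 for iron and haem, and 0 to 2 for miRNA precursors. Medians then ran from 0.038 to 0.066 for guidance, -0.003 to 0.028 for cyclic AMP, -0.065 to -0.024 for Nrf2, 0.012 to 0.07 for matrix, 0.147 to 0.206 for AP-1, 0.032 to 0.069 for TGF-beta, 0.008 to 0.048 for BCL2, -0.038 to 0.008 for iron, -0.044 to 0.02 for lipid storage, 0.031 to 0.087 for clock, -0.089 to -0.033 for MAP kinase feedback, -0.008 to 0.044 for Wnt, -0.087 to -0.046 for mTORC1, 0.148 to 0.227 for collagen enzymes, -0.119 to -0.081 for fatty acid oxidation, -0.022 to 0.044 for cell cycle and -0.163 to -0.119 for recombination. The cause was not tested. No detection call was used, so dim genes carry values near background, and 3 arrays per group from 1 line limit precision.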

Other observations

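Some probe sets with no gene symbol had 1 array far from the other 5. Probe set 17248074 measured 13.44 on hypoxia control array b and 5.31 to 7.24 on the others, and probe set 17367901 measured 13.92 on hypoxia control array a and 9.63 to 10.05 on the others. Neither passed limma's test (adjusted p = 0.205 and 0.184). Probe set 17549150, in contrast, measured 11.18, 11.25 and 11.15 in normoxia and 13.16, 13.06 and 13.10 in hypoxia (1.91 ± 0.05, adjusted p = 3.7e-11). These were chosen after their values were seen.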
